A study of Rattus norvegicus with 20 samples.

Results

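The pancreatic islet transcriptome is described here in 10 juvenile Sprague Dawley rats, an outbred laboratory strain, that were sired by fathers fed a control diet. These are the arrays labelled with the control paternal diet, 10 of the 20 in the study, and they hold islets of 5 daughters and 5 sons. The other 10 arrays come from offspring of fathers on a high-fat diet (HFD). They serve to see whether the same genes vary among them, and otherwise enter only an alternative fit of the sex comparison. The control fathers had eaten their diet for 12 weeks before they were mated with chow-fed females, and the offspring were weaned onto chow and killed unfasted at 4 to 5 weeks of age. No animal carried a transgene or a deletion according to the labels. What the control diet contained is not given in the sources used here. The 10 litters came from 8 control fathers, so some arrays shared a father, and which ones is not given. The islets were not sorted into cell types, so each array sums all cells of the preparation. Arrays are called daughter 1 to 5 and son 1 to 5, and the numbers name arrays without pairing them.

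Islets are clusters of hormone cells scattered in the pancreas. Beta cells release insulin and amylin, alpha cells glucagon, delta cells somatostatin, PP cells pancreatic polypeptide and the rare epsilon cells ghrelin. They are surrounded by the exocrine pancreas, in which acinar cells make the digestive enzymes and duct cells carry them to the gut, and isolated islets usually bring some of this tissue along. Transcription factors such as Neurod1, Pax6 and Isl1 keep the hormone cells in their mature state, while Neurog3 and Pax4 belong to their embryonic progenitors.

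Values are log2 signals, on which a difference of 1 is a 2-fold difference in signal. The table covers 29214 probe sets, and 14506 genes had a probe set with a single gene symbol. Where a gene had several, the one with the highest mean was used. A signal depends on its probes as well as on the transcript, so the order of genes by signal is not an order of transcript amounts, and near-identical genes such as Ins1 and Ins2, the trypsins or the metallothioneins may share signal. Array medians lay between 6.33 and 6.49. The 10 arrays limit the precision, as arrays have no read depth.

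Several arrays stood apart as a whole. The median correlation of an array with the others, taken across probe sets, which are not independent replicates, was 0.965 for son 1 and 0.977 for daughter 1 against 0.982 to 0.99 for the other 8. Son 1 also had the highest array median. Son 3 and daughter 1 were high in immune transcripts, as described further on. Some counts, SDs and sex differences are also given without single arrays or without both of these, while list means are given array by array.

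Insulin transcripts and those of pancreatic enzymes gave the strongest signals. Of the 30 genes with the highest means, 16 belong to the list of acinar cell genes and 5 are islet hormones. The highest means were those of Ctrb1, a chymotrypsinogen of acinar cells, with 14.05 ± 0.11 (SD, n = 10), of Ins2 with 14.02 ± 0.04 and of Ins1 with 13.93 ± 0.07. Means of the 30 ran down to 12.37. Their median SD was 0.16, but values near 14 lie at the top of the range of this table, where differences between arrays are compressed. In bulk islets a lower signal can come from fewer cells of a type or from less RNA per cell, and these cannot be told apart.

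The promoters of these genes differ in their known control elements, and 5 of them, from hormone and enzyme genes, are shown. Each line gives the 250 bases before the transcription start from RefSeq on the rat assembly GRCr8, 5′ to 3′ on the strand of the gene, with matches to the searched motifs in capitals. The searched motifs were the insulin E-box GCCATCTG, the homeodomain core TAATTA, the TATA box TATAAA and the E-box and RBPJ parts of the acinar PTF1 site, CACCTG and TTTCCC, on both strands. Of these motifs, Gcg held only the TATA box. The windows are chr1:261185869-261186118 (plus strand) for Ins1, chr1:207273806-207274055 (minus) for Ins2, chr3:67531534-67531783 (minus) for Gcg, chr19:56566979-56567228 (minus) for Ctrb1 and chr7:133665062-133665311 (minus) for Cela1.
Ins1: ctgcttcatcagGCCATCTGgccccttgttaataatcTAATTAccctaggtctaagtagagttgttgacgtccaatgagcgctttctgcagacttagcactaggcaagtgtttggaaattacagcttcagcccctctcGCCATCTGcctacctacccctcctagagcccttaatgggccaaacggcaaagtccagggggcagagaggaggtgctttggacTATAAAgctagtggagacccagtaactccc
Ins2: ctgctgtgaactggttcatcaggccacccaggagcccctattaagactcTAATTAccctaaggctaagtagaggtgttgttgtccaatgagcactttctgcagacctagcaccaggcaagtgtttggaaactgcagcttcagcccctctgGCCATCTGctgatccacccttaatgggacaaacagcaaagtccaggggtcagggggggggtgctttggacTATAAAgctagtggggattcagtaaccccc
Gcg: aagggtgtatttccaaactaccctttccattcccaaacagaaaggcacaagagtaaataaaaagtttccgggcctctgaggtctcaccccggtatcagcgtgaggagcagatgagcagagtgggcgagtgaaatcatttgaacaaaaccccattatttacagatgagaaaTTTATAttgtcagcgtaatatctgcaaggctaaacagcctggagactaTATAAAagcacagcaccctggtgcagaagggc
Ctrb1: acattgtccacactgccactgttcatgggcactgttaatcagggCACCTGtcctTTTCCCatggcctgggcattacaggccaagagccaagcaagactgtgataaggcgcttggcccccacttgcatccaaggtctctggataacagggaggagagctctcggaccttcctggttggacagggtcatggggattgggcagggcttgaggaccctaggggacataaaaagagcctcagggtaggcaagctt
Cela1: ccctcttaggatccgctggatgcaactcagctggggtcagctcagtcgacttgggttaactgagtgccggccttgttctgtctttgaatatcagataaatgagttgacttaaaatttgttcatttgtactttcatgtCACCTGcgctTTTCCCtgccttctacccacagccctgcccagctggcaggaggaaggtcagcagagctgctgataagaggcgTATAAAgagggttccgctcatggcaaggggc

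The insulin E-box began 238 and 112 bases before the start of Ins1 and 100 bases before that of Ins2. It occurred in 0.987% of the 27457 promoters of this length, and in 2 of 7 hormone genes. TAATTA lay 213 bases before the start of Ins1 and 201 before that of Ins2, against 4.94% of all promoters. The TATA box was found in 12 of the 24 genes among the top 30 that had a promoter sequence, in 12 of 23 acinar genes and in 4 of 7 hormone genes, while 13.1% of all promoters held it.

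CACCTG occurred in 15.6% and TTTCCC in 22.1% of promoters, and both occurred together in 3.23%. Among the 23 acinar genes 6 held both. In Ctrb1 and Cela1 they stood 4 bases apart in the same order, CACCTG first, with the E-box beginning 206 and 113 bases before the start. This spacing was searched for after it had been seen in those sequences. It occurred in 8 of all promoters, 0.0291%, of which 3 were acinar genes, Prss2 being the third with the match 118 bases before its start. A match is a match of letters and does not show binding.

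The insulin genes had the smallest SDs of the 30. Ins2 ranged from 13.94 to 14.1 with a median of 14.01, and Ins1 from 13.82 to 14.06 with a median of 13.93. Gcg, the glucagon gene of alpha cells, ranged from 13.66 to 13.98 with a median of 13.86. Iapp, which encodes amylin, a peptide released with insulin, ranged from 12.78 to 13.33 and had a mean of 13.1 ± 0.16. All these ranges are narrow, and the values of daughters and sons overlapped in each.

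The minor hormones spread more. Ppy, pancreatic polypeptide, had a mean of 13.28 ± 0.31 and ranged from 12.54 in son 2 to 13.7 in daughter 5, with a median of 13.34. Pyy, a peptide related to it, was also lowest in son 2, at 10.85, and its other 9 arrays lay between 11.36 and 12.44. Sst, the somatostatin gene of delta cells, ranged from 11.4 to 11.95 around a median of 11.64. Ghrl, the ghrelin gene of epsilon cells, had a mean of 6.48 ± 0.3 and was lowest in daughter 1, at 5.68, while the others lay between 6.41 and 6.72.

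Enzyme genes of acinar cells moved as a group between arrays. Amy2a3, the pancreatic amylase, had a mean of 13.84 ± 0.09. Cpa1, a carboxypeptidase, had 13.7 ± 0.12. Pnlip, the pancreatic lipase, had 13.41 ± 0.24 and the elastase Cela1 12.84 ± 0.49, the largest SD of the top 30. Daughter 5 had the lowest value of Cela1, 11.68, where the other arrays lay between 12.5 and 13.33.

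The whole acinar list showed the same order of arrays. Of its 33 genes 28 were measured. Their mean was 12.37, 12.45, 12.24, 12.47 and 11.42 in daughters 1 to 5 and 12.62, 12.77, 12.38, 12.57 and 12.04 in sons 1 to 5. Daughter 5 lay below the gene's median in all 28, by a median of 1.04, and son 2 was the highest array in 25. In daughter 5 the list mean was thus lowest while the hormone list mean, 12.47, was its highest over the arrays.

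Other strong signals came from housekeeping and secretory genes. Eef1a1, an elongation factor of protein synthesis, had a mean of 13.1 ± 0.11, and Hspa8, a constitutive chaperone, 12.92 ± 0.12. Rpph1, the RNA of ribonuclease P, had 12.72 ± 0.16 and Actg1, a cytoplasmic actin, 12.55 ± 0.15. Endocrine secretion was represented by Pcsk2, the prohormone convertase that matures glucagon and insulin, with 12.57 ± 0.18, by Slc30a8, the zinc transporter of insulin granules, with 12.52 ± 0.17, and by the granin Scg2 with 12.43 ± 0.18. Hspa5, the main chaperone of the endoplasmic reticulum, had 12.37 ± 0.19.

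**Figure D1:**
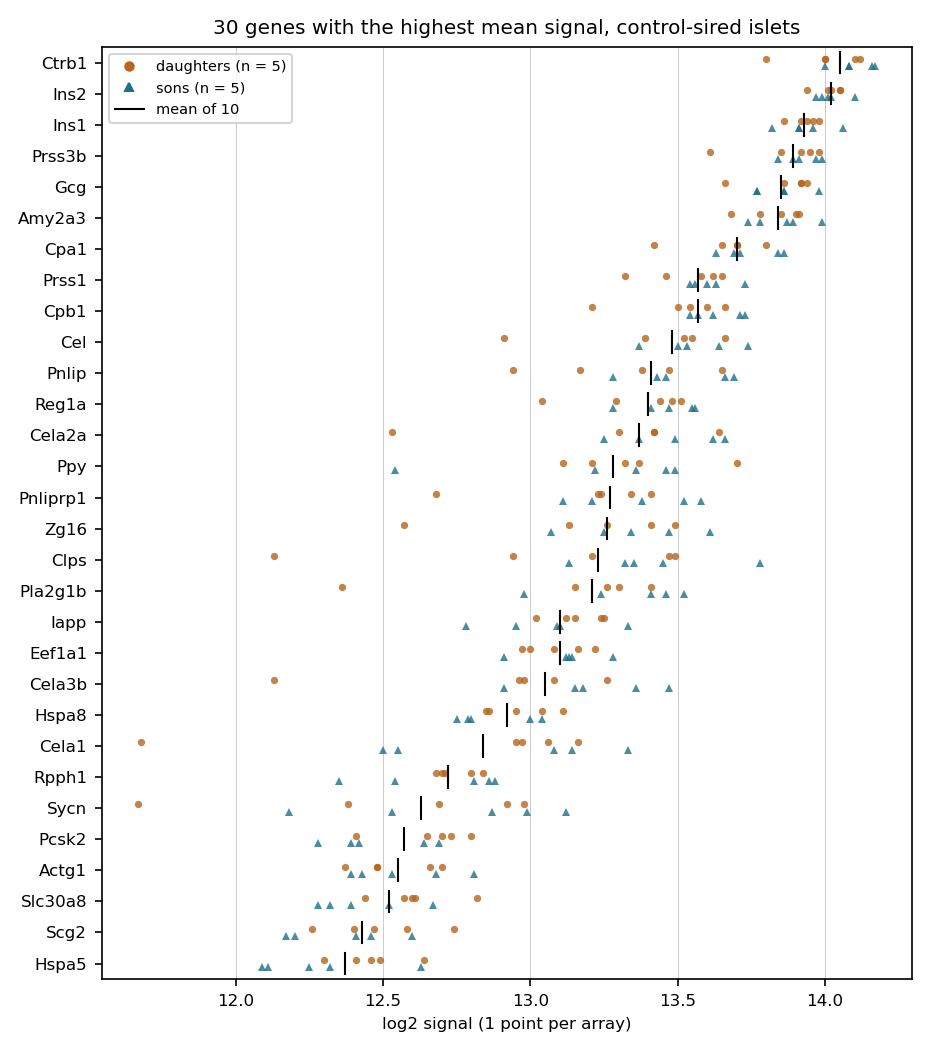
Log2 signal of the 30 genes with the highest mean over the 10 control-sired arrays, 1 point per array (circles daughters, triangles sons) with the mean as a black bar. Hormone genes such as Ins2 (13.94 to 14.1) are tight, while in most acinar genes a single circle, daughter 5, lies to the left of all other points, as in Cela1 at 11.68.

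To separate expressed from near-silent genes, olfactory receptor genes served as a floor, since islets are not known to make them in quantity. In each array the level was the 95th percentile of 1129 olfactory receptor probe sets, between 5.41 and 5.62 in 9 arrays and 6.11 in son 1. A gene is called above the level when it exceeds it in all 10 arrays and near-silent when it does so in 0 of 10. Of all genes 9775 (67.4%) were above the level, 2803 (19.3%) near-silent and 1928 (13.3%) mixed. Without son 1, whose level was the highest, 10225 genes were above it.

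The genes called regulators here come from 10 lists. These hold hormones and other peptides, transcription factors including acinar ones, receptors, and genes of glucose sensing and hormone processing. They also hold genes known as repressed in beta cells. Of 154 measured genes in these lists, 132 were above the level in all 10 arrays, 7 were near-silent and 15 were mixed. The near-silent genes were Foxa1, Gal, Tac1, Drd2, Sstr1, Mc4r and Htr2b. The median SD of the regulators was 0.23, against 0.2 for all genes, and the largest was 0.88.

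All 13 measured transcription factors of beta cells were above the level. Pax6, which keeps hormone genes on in all islet cells, had a mean of 10.22 ± 0.25, and Neurod1, an activator of the insulin genes, 10.1 ± 0.26. Rfx6, needed for endocrine development and beta cell function, had 10.1 ± 0.26, St18 9.52 ± 0.22 and Isl1 9.45 ± 0.27. Mlxipl, the glucose-responsive factor ChREBP, had 9.4 ± 0.15.

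The lower signals of this list were still clear of the level. Myt1 had 8.87 ± 0.21, Nkx6-1, which keeps beta cells from other islet fates, 8.62 ± 0.15 and Rfx3, a regulator of cilia and endocrine cells, 8.62 ± 0.2. Foxa2 had 7.93 ± 0.22, Prox1 7.81 ± 0.21, Hnf4a 7.63 ± 0.18 and Esrrg 7.09 ± 0.11. The other 8 members of the list were not analysed here. Daughter 1 lay below the median in all 13 measured genes, by a median of 0.41, and had the lowest list mean, 8.57, against 8.68 in son 1 and 9.1 in daughter 5, the highest. In the same array 15 of 16 stellate and fibroblast genes lay above their median, by a median of 0.95, and 14 of 14 endothelial genes, by 0.41, and the B cell, macrophage and antigen presentation lists had their highest means. The part of these cells in the lower factor signals was not tested.

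Factors of the other islet cell types were mostly above the level. Etv1 had 9.46 ± 0.26. Irx2, known from alpha cells, had 7.79 ± 0.25 and its relative Irx1 6.61 ± 0.29. Pou3f4, also an alpha cell factor, had 6.75 ± 0.24. Meis2 had 7.76 ± 0.23, Gata6 7.41 ± 0.06 and Fev, known from endocrine progenitors and serotonin neurons, 7.07 ± 0.18. The exceptions were Hhex, a factor of delta cells, at 5.84 ± 0.14 and above the level in 9 arrays, and Foxa1, at 5.37 ± 0.28 and near-silent.

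Factors of the embryonic pancreas lay closer to the level. Of 12 measured, 9 were above it and 3 mixed, where 67.4% of all genes were above it. Neurog3, the switch that commits progenitors to the endocrine fate, ranged from 5.84 to 6.56 with a mean of 6.21 ± 0.23, and was above the level in 10 of 10 arrays. Pax4, which acts after Neurog3, ranged from 5.25 to 6.01 and was above it in 3. Neurod2 was above it in 4 and Nkx6-2 in 8 arrays. Nkx6-2 was highest in son 1, at 6.89, where the others lay between 5.29 and 5.93.

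Other members of that list had higher signals. Sox4, a factor of endocrine differentiation, had 8.15 ± 0.12 and Hes1, a Notch target, 7.37 ± 0.27. Prrx1 had 7.18 ± 0.33, Onecut1 6.97 ± 0.19, Sox17 6.86 ± 0.25 and Sox2 6.57 ± 0.3. Gata4 had 6.08 ± 0.41. Several of these are also made by duct, mesenchymal, endothelial or nerve cells, so their source in a bulk islet sample is not given by the signal.

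Acinar transcription factors followed the enzyme genes across arrays. Rbpjl, the pancreatic partner in the PTF1 complex, ranged from 8.23 in daughter 5 to 11.11 in son 2 with a median of 9.41. Ptf1a, its DNA-binding partner, ranged from 5.62 in daughter 5 to 7.63 in son 2 with a median of 6.62. Over the 7 factors of this list, which include Bhlha15 (7.43 ± 0.3), Nr5a2 (7.18 ± 0.48), Xbp1 (11.14 ± 0.21), Gata4 and Nr0b2, son 2 was the highest array in 6 and daughter 5 below the median in all 7. Nr0b2 was above the level in 8 arrays.

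All 13 measured genes of glucose sensing and all 20 of hormone processing and granule traffic were above the level. Slc2a2, the glucose transporter of rat beta cells, had 11.75 ± 0.24. The 2 subunits of the ATP-sensitive potassium channel, Abcc8 and Kcnj11, had 10.14 ± 0.2 and 9.15 ± 0.27, and the mitochondrial enzymes Glud1 and Gpd2 10.17 ± 0.13 and 8.53 ± 0.23. Cpe, which trims prohormones, had 12.29 ± 0.27 and Pam, which amidates peptides, 11.86 ± 0.19. Ptprn2, a granule membrane protein, had 10.95 ± 0.18.

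Of 26 peptides other than the classical hormones, 18 were above the level, 2 near-silent and 6 mixed, a share above the level near the 67.4% of all genes. Ucn3, a marker of mature beta cells, had 10.4 ± 0.22, Npy 10.08 ± 0.2 and Trh, a peptide of the young beta cell, 10.14 ± 0.31. Chga had 10.64 ± 0.27 and Scg5 11.81 ± 0.18. Gal, the galanin gene, had 5.02 ± 0.28 and Tac1, the substance P gene, 3.96 ± 0.19, and both are near-silent.

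Of 30 measured receptors, 25 were above the level, 4 near-silent and 1, Cckbr, mixed, where 19.3% of all genes were near-silent. Ffar1, the fatty acid receptor that amplifies insulin release, had 10.42 ± 0.22, and Gipr, the receptor of the incretin GIP, 9.84 ± 0.27. Ghr, the growth hormone receptor, had 9.21 ± 0.25 and P2ry1, a nucleotide receptor, 9.02 ± 0.42. Glp1r, the other incretin receptor, had 8.83 ± 0.2 and Insr, the insulin receptor, 8.87 ± 0.21. The near-silent ones were Htr2b, a serotonin receptor, with 4.37 ± 0.28, Mc4r with 4.67 ± 0.23, Sstr1 with 4.9 ± 0.29 and Drd2 with 5.28 ± 0.15. The serotonin receptor Htr1d, by contrast, ranged from 5.83 to 6.75 and was above the level in all 10.

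**Figure D2:**
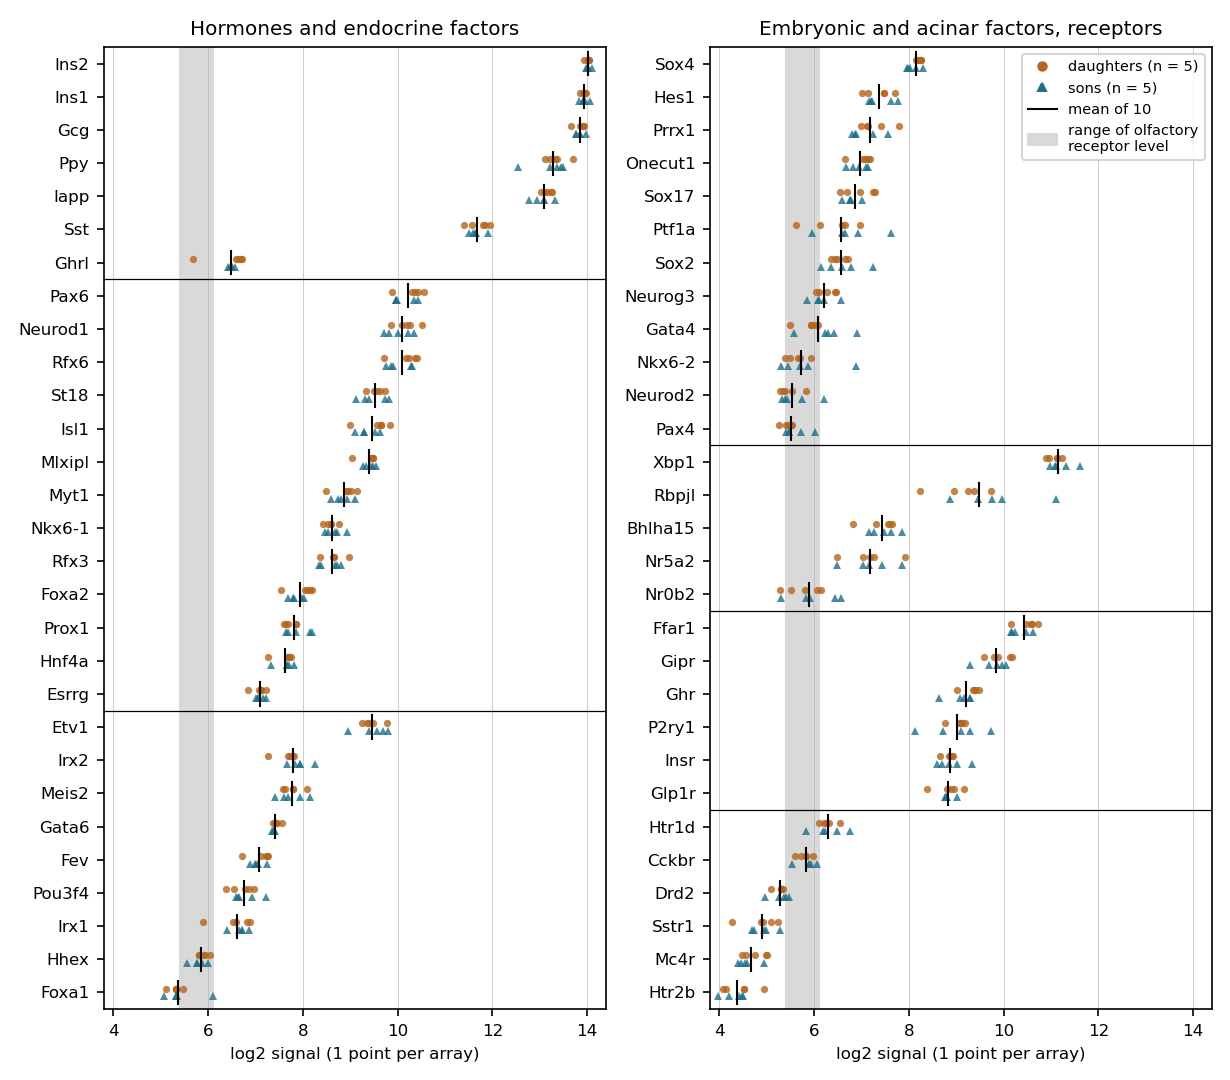
Log2 signal per array (circles daughters, triangles sons, black bar the mean of 10) for hormones, endocrine and other transcription factors and receptors, with the grey band the range of the olfactory receptor level over the arrays, 5.41 to 6.11. Hormones and beta cell factors lie to the right of the band except Ghrl in daughter 1 (5.68), while Foxa1, Pax4 and the receptors Drd2, Sstr1, Mc4r and Htr2b lie in or to the left of it.

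Genes known to be kept low in beta cells were not silent in these bulk islets. Of 19 measured, 16 were above the level and 3 mixed, where 67.4% of all genes were above it. Igfbp4 had 9.26 ± 0.21, Ldha, the lactate dehydrogenase subunit that beta cells hold down, 9.22 ± 0.53, Cxcl12 8.32 ± 0.63 and Tgm2 8.25 ± 0.34. Other cell types make these genes too, and daughter 1 and son 3 each lay above the median in 18 of the 19. Cd44, the most variable gene of the regulator lists, was 8.65 in daughter 1 and between 5.72 and 7.01 in the others. Whether the genes known from other cells set these values was not tested.

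Most markers of other pancreatic cells were above the level in every array, as were 67.4% of all genes. All 14 measured duct genes were above the level, among them Tff2 with 10.85 ± 0.75, Krt18 with 10.0 ± 0.15 and Epcam with 9.69 ± 0.22, the keratin and the adhesion molecule being shared with other epithelia. Of 16 stellate and fibroblast genes 15 were above it, with Sparc at 11.12 ± 0.24, Acta2 at 10.45 ± 0.18 and Rgs5, a pericyte gene, at 10.09 ± 0.19. All 14 endothelial genes were above it, including Plvap, of fenestrated capillaries, at 9.75 ± 0.24 and Kdr, the VEGF receptor, at 9.12 ± 0.24. The stellate list mean was 9.39 in daughter 1 and 9.11 in son 3 against 8.31 to 8.92 in the others, and all 14 endothelial genes lay above their median in both of these arrays.

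In the blood, nerve and mesothelial lists 4 of 7, 5 of 11 and 4 of 6 genes were above the level, against 67.4% of all genes. Hbb, a beta globin, had 10.16 ± 0.43 and was highest in son 2, which led 6 of the 7 blood genes. In the Schwann and nerve list Mbp, a myelin gene, had 7.69 ± 0.09, and 3 genes were near-silent, S100b, Gfap and Cdh19. Msln, mesothelin, had 11.62 ± 0.21 with every array between 11.24 and 11.99. Of the other mesothelial markers, Upk1b, at 5.53 ± 0.3, and Bnc1, at 5.49 ± 0.18, were above the level in 4 arrays and in 1.

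Genes varied little between these arrays as a rule. The median SD over all genes was 0.2 and the 90th percentile 0.34. It was 0.22 over the 3627 genes with the lowest means and 0.16 over the 3627 with the highest. An SD of at least 1 was reached by 48 genes, 0.331% of all. At the threshold lay Cxcl6, with an SD of 1.0, inside and Gpr174, with 0.992, outside.

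Immune genes led these 48. In 8 immune lists (B and plasma cells, T and NK cells, macrophages and dendritic cells, neutrophils and mast cells, antigen presentation, lymph node structure, inflammation and interferon response) 118 genes were measured, 0.813% of all, and they made up 16 of the 48, or 33.3%. A further 2 were acinar genes, 2 small intestine genes and 1 a fat gene, 0 were in the regulator lists and 27 were in no list. The lists were chosen with earlier results of these data known, so these shares describe the 48 genes and are no test. The highest value lay in daughter 1 for 24 of the 48 genes and in son 3 for 16. In 34 of the 48 these were the 2 highest arrays. Without daughter 1 alone 29 genes reached an SD of 1, and without son 3 alone 33. Without both arrays 12 of the 48 kept an SD of at least 1, and 18 genes in all reached it. Of the immune genes, Cr2 (SD 1.87), Cxcl13 (1.67), Ptprc (1.06) and Ms4a1 (1.02) kept it without both. The other immune genes fell below it, such as Cd3g from 1.45 to 0.54, Il7r from 1.33 to 0.35 and Lyz2 from 1.26 to 0.64.

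**Figure D3:**
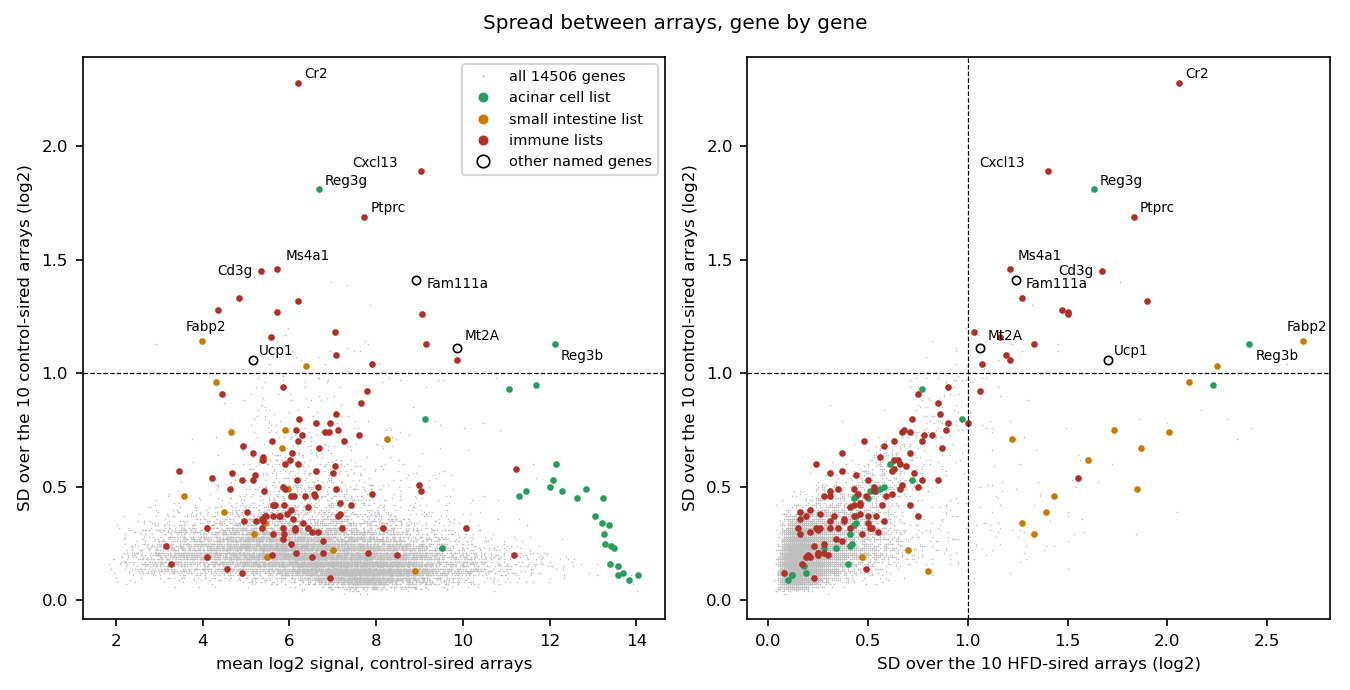
SD between the 10 control-sired arrays for each of 14506 genes, against the mean log2 signal (left) and against the SD of the same gene in the 10 HFD-sired arrays (right), with dashed lines at 1. Immune genes (red) lead the points above the line, from Cr2 at 2.28 down, and most of the 48 genes above it lie right of the vertical line as well.

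B cell genes spread most. Cr2, the complement receptor of B cells and follicular dendritic cells, had the largest SD of all genes, 2.28. Its values were 9.39, 4.0, 4.61, 3.74 and 5.32 in daughters 1 to 5 and 5.3, 7.63, 8.96, 4.18 and 8.98 in sons 1 to 5. Daughter 1, son 3 and son 5 were thus high and daughters 2 and 4 and son 4 low, with both sexes at either end.

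Ms4a1, which encodes CD20, showed the same 3 arrays on top, with 8.46 in daughter 1, 7.23 in son 5, 7.15 in son 3 and 4.07 to 5.87 elsewhere. Btla, an inhibitory receptor of lymphocytes, read 7.71 in daughter 1, 7.2 in son 3 and 6.58 in son 5. Jchain, of secreted antibodies, read 7.75 in son 3, 7.7 in daughter 1 and 6.63 in daughter 5. The mean of the 9 measured B cell genes was 7.81 in daughter 1, 7.29 in son 3, 6.94 in son 5 and between 4.94 and 6.12 in the other arrays.

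T cell genes were highest in son 3 and daughter 1. Cd3g, a chain of the T cell receptor complex, read 8.3 in son 3 and 7.54 in daughter 1, against 4.06 to 5.56 in the others. Il7r, the interleukin 7 receptor, read 7.31 and 7.28 there and 3.81 to 4.85 elsewhere. Of the 19 measured T and NK cell genes 16 were highest in son 3, and 18 lay above the median in each of son 3, daughter 1 and son 1. In son 1 the median excess was 0.39, against 0.88 in son 3 and 0.54 in daughter 1, and its olfactory receptor level was the highest of the arrays, at 6.11. Son 5, high in B cell genes, had a T cell list mean of 5.43, within the 5.32 to 5.44 of the remaining arrays, where son 3 had 6.67, daughter 1 6.24 and son 1 5.84.

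Macrophage and antigen presentation genes were highest in the same arrays. Ptprc, the leukocyte antigen CD45, ranged from 5.78 in daughter 2 to 10.51 in daughter 1, with 10.27 in son 3 and 9.01 in son 5. Lyz2, the lysozyme of macrophages, read 11.23 in son 3 and 11.21 in daughter 1 and 7.47 to 9.54 in the others. Cd74, the invariant chain of MHC class II, ranged from 8.65 to 11.83 and RT1-Da, a class II chain of the rat, from 8.02 to 11.28, both highest in daughter 1. All 13 antigen presentation genes were highest in daughter 1, and all 13 were above the median in son 3. The macrophage list mean was 8.0 in daughter 1, 7.67 in son 3 and between 6.15 and 6.88 in the rest. The neutrophil and mast cell list did not share this pattern, with means of 5.62 in daughter 1, 5.47 in son 3 and 5.66 in daughter 5, its highest.

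Genes of lymph node tissue were high there too. Cxcl13, the chemokine that draws B cells into follicles, had the second largest SD, 1.89, and ranged from 5.68 in daughter 2 to 11.63 in daughter 1, with 10.89 in son 3, 10.44 in daughter 5 and 10.27 in son 5. Glycam1, made by the high endothelial venules of lymph nodes, read 8.9 in son 3, 8.3 in daughter 1 and 5.01 to 6.42 elsewhere. Fdcsp, of follicular dendritic cells, was near-silent, at 5.03 ± 0.39. The part of admixed lymph node tissue in the immune values was not tested.

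Several of the most variable genes outside the lists were highest in the same arrays. Cd53 and Coro1a, of leukocytes, were highest in daughter 1, at 9.82 and 9.91, with son 3 at 9.36 and 9.87. Dnase1l3, a nuclease of dendritic cells and macrophages, was highest in son 3, at 9.9, with daughter 1 at 8.63. Siglec1, of lymph node and other macrophages, read 9.0 in son 3 and 7.99 in daughter 1. From the inflammation list, Vcam1 read 9.09 in son 3, 8.9 in daughter 1 and 7.97 in daughter 5, and Il13ra2 read 7.05, 5.82 and 5.32 there.

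Interferon response genes set daughter 1 apart from son 3. All 13 measured were highest in daughter 1, by a median of 1.22 above the gene's median, and the list mean was 7.09 there, 6.19 in son 3 and 5.63 to 5.96 in the others. Ifit1 read 6.91 in daughter 1 and 3.83 to 4.65 in the other 9, son 3 included. Mx1 and Usp18, by contrast, were high in both, with 6.42 and 6.87 in daughter 1 and 6.27 and 6.85 in son 3.

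**Figure D4:**
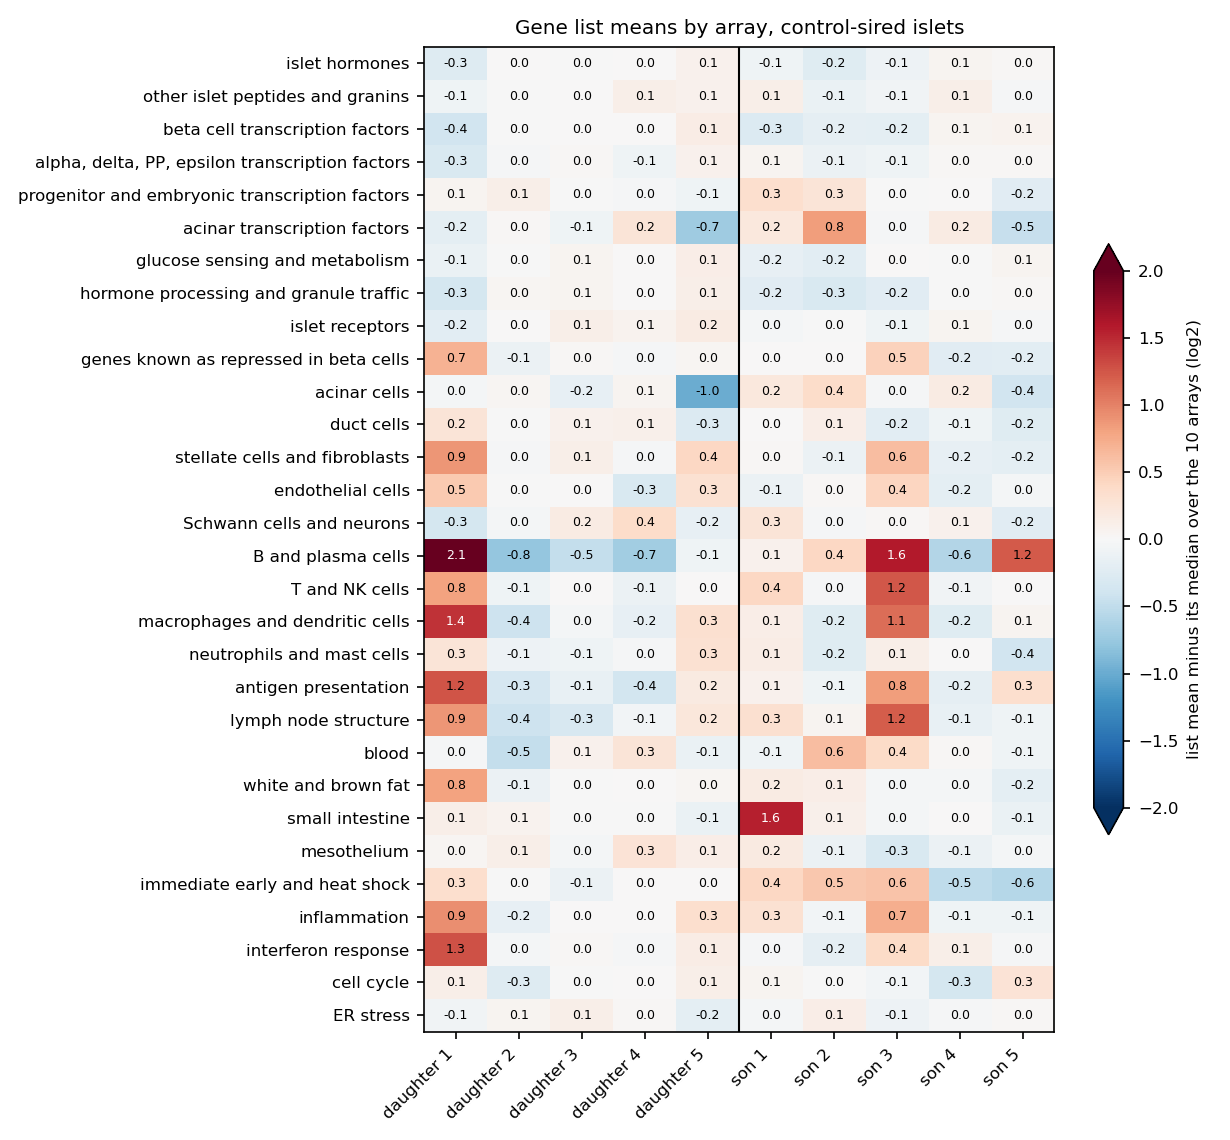
Mean log2 signal of each gene list in each array minus that list's median over the 10 arrays (red higher, blue lower, printed to 1 decimal). Daughter 1 and son 3 are red in the immune lists, but only faintly in neutrophils and mast cells (0.26 and 0.11, against 0.3 in daughter 5). Son 1 is red in small intestine, daughter 1 in fat and interferon response, and daughter 5 is blue in acinar cells.

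Genes known from small intestine, and some known from fat, were high in single arrays. In son 1 all 16 measured small intestine genes lay above the median, 14 of them highest there, and the list mean was 7.08 against 5.38 to 5.63 in the others. The median olfactory receptor signal was also highest in son 1, 4.39 against 3.9 to 4.06, while the median excess of the intestine genes there was 1.36. Fabp2, a fatty acid binding protein of enterocytes, read 7.21 in son 1 and 3.4 to 3.84 elsewhere. Apoa1 read 9.28 in son 1 and 5.88 to 6.41 elsewhere. The defining mucin and disaccharidase genes Muc2, Sis and Lct were not analysed here, and Mep1a, at 3.57 ± 0.46, was near-silent. The source of these transcripts was not tested.

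In daughter 1, Ucp1, the uncoupling protein of brown fat, read 8.12 where the others lay between 4.55 and 5.22. Fabp4 was highest there too, at 9.43, and Adipoq, the adiponectin gene, read 6.68 against 4.88 to 5.74. Not all fat genes followed. Of 14 measured, 11 lay above their median in daughter 1 and 7 were highest there, while 9 lay above it in son 1 and 4 were highest in that array. The fat list mean was 6.75 in daughter 1 and between 5.77 and 6.13 in the others, while Dio2 and Elovl3, also of brown fat, were near-silent. The SDs of Fabp2 and Ucp1 rest on these arrays: without son 1 that of Fabp2 was 0.14, and without daughter 1 that of Ucp1 was 0.22.

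The variable acinar genes were antimicrobial lectins. Reg3b ranged from 10.15 in son 5 and 10.34 in daughter 5 to 13.4 in son 2, with a median of 12.56. Reg3g read 11.04 in son 1 and 8.48 in daughter 1 against 5.05 to 6.87 in the others, and its SD of 1.81 fell to 1.03 without son 1. Reg3g is also made by the small intestine and Reg3b by both tissues, and son 1 is the array high in intestinal genes, whose part in the Reg3g value was not tested. Fam111a, a protease that restricts some viruses, was low in 1 array only, 5.22 in son 1 against 8.68 to 10.27, and its SD of 1.41 was 0.57 without that array.

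Metallothioneins and a mast cell protease varied without following the immune arrays. Mt2A, which binds zinc and copper, ranged from 8.5 in daughter 3 to 11.98 in son 2, with a median of 9.9, and Mt1 from 9.61 to 12.68 in the same arrays. Mcpt1l1, a mast cell protease, ranged from 5.53 in son 2 to 9.69 in daughter 5. Son 2 was thus the highest array for the metallothioneins and the lowest for the protease.

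**Figure D5:**
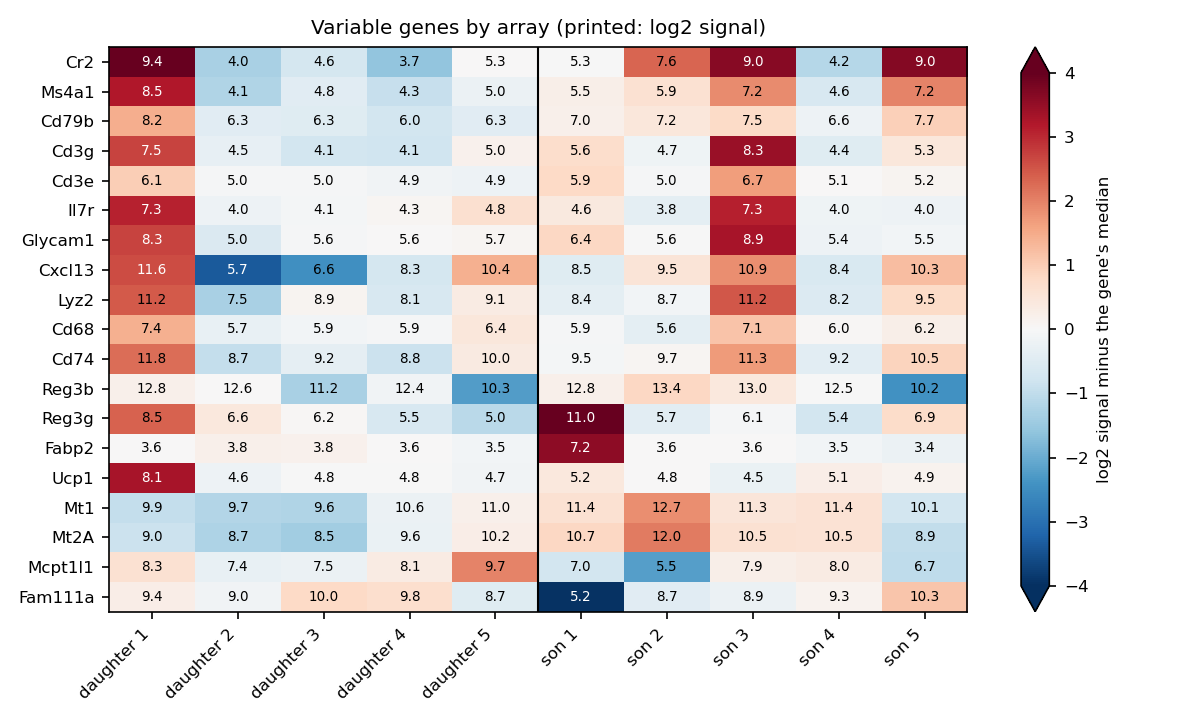
Log2 signal (printed) of 19 variable genes in each array, coloured by the difference from the gene's median. Immune genes from Cr2 to Cd74 are red in daughter 1 and son 3, Fabp2 and Reg3g in son 1, Ucp1 in daughter 1, and Mt1 and Mt2A in son 2, while Fam111a is blue in son 1 alone.

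Immediate early genes, which respond within minutes to handling and other stimuli, differed by array as well. Egr1 ranged from 7.65 in son 5 and 7.9 in son 4 to 10.49 in son 2, and Fos from 6.69 in son 4 and 6.73 in son 5 to 9.48 in son 2. Their list, with 15 measured genes, also holds heat shock genes. Its mean was 6.93 in son 5 and 6.98 in son 4. It was between 7.37 and 7.92 in the daughters and son 1, and 8.04 and 8.06 in sons 2 and 3. Sons thus held both ends. The list means of the endoplasmic reticulum stress genes lay between 9.35 and 9.68. The median SD of its genes was 0.21, against 0.2 for all genes, and Trib3 ranged from 5.72 in son 5 to 7.19 in son 2.

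Most of these genes were also variable in the 10 HFD-sired arrays, whose values did not enter the choice by SD. Of the 48 genes 41 (85.4%) had an SD of at least 1 there as well, their median SD was 1.22 and the lowest 0.79. In the HFD-sired arrays 155 genes (1.07% of all) reached that SD, so the 41 were 26.5% of them. Cr2 ranged from 3.92 to 9.4 in those arrays with an SD of 2.06. Fabp2 ranged from 3.36 to 11.63 and Ucp1 from 4.6 to 10.18. Fam111a was again low in 1 array, at 5.71, where its median was 9.18.

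Daughters and sons were compared with limma, the 5 against the 5, and 0 of 29214 probe sets (0%) passed a Benjamini-Hochberg adjusted p of 0.05. At an unadjusted p of 0.05 there were 961 (3.29%), where 5% of all probe sets would be 1460.7, and 408 (1.4%) of them were higher in daughters and 553 (1.89%) in sons. Ordinary least squares gave 0 adjusted and 1080 unadjusted. The unadjusted count of limma rose to 1828 without son 5 and to 1581 without son 3. In 195 probe sets (0.667%) daughters and sons did not overlap. The median SE of a difference was 0.13. The labels could not be checked with sex-linked genes, as Xist and the Y-linked genes of the list other than Sry had no single-symbol probe set, and Sry was near-silent, at 5.06 ± 0.11.

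Among named genes, the 10 largest differences in each direction at the unadjusted threshold all had a limma Benjamini-Hochberg adjusted p of 0.905. Tspan8, a membrane protein of epithelia, was higher in daughters by 1.25 ± 0.39 (log2, SE), reading 9.1, 6.71, 7.85, 7.26 and 6.55 in daughters and 6.25, 6.32, 6.26, 6.04 and 6.35 in sons. The groups did not overlap. Mfap4, an elastic fibre protein, was higher in daughters by 0.69 ± 0.19, with 7.54 to 8.77 in daughters and 7.28 to 7.44 in sons. Daughter 1 was highest in both, and without it the differences were 0.85 for Tspan8 and 0.52 for Mfap4.

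The matrix genes Dpt and Fbln1 had differences of 0.77 and 0.75, and were also highest in daughter 1, without which the differences were 0.43 and 0.42. The mast cell genes Mcpt1l1 and Cpa3 had differences of 1.17 and 0.85 and were highest in daughter 5, without which they were 0.79 and 0.55. In the other direction, Mt2A (daughters minus sons) differed by -1.33 ± 0.48 and Mt1 by -1.23 ± 0.42, with overlapping groups: Mt1 read 9.61 to 11.02 in daughters and 10.09 to 12.68 in sons. Cuzd1, of acinar cells, differed by -1.07 ± 0.41 and was highest in son 2 and lowest in daughter 5, without which the difference was -0.78. Son 2 and daughter 5 are the arrays at the ends of the acinar list. Daughter 4, however, read 9.47 in Cuzd1, near the 9.36 of daughter 5, while its acinar list mean was 12.47. The part of acinar cells in this difference was not tested. The 10 genes higher in sons also included the olfactory receptors Or6s1, Or2t48 and Or4k42b, of the class used here as a floor. Or6s1 was above the level in 9 arrays, Bmp2 in 1, and Or2t48, Or4k42b and Fmo9 in 0. Or2t48 and Or4k42b were highest in son 1, the array with the highest olfactory receptor level. Of the 10 higher in daughters, Cxcl6 was above the level in 3 arrays and the others in more.

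Islet genes gave no call between the sexes. At the unadjusted threshold 0 of 7 hormone genes, 0 of 13 beta cell transcription factors, 1 of 13 genes of glucose sensing, 1 of 20 of hormone processing and 1 of 30 receptors were reached, against 2.75% of all genes. The median difference of the hormone genes was 0.01, that of all genes 0.01 and that of the beta cell factors 0.08. Over the acinar list the median difference was -0.2, with 1 of 28 genes at the unadjusted threshold.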

How the data were processed

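Islet RNA was measured on Affymetrix Rat Gene 1.0 ST arrays, 1 per animal. The deposited log2 values are RMA values (robust multi-array average) per the labels' design text, while the submitters' processing notes name MAS5, and this conflict was not resolved. A filter on dim probe sets is not given in the sources used here.

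Gene names came from the platform annotation, in which 15310 probe sets had a single symbol, 323 several and 13581 none here. By gene number 15279 matched RefSeq genes, and 198 probe sets repeat an earlier one. For each of 14506 genes the probe set of highest mean over the 10 control-sired arrays was taken, 527 genes having several.

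The members and the 31 gene lists (446 measured genes) were chosen with earlier results of these data known. Genes to name were taken from the 30 with the highest mean, the 40 with the largest SD and all measured hormones and listed transcription factors. Further ones came from the 4 strongest and up to 4 weakest near-silent members of the other lists, and from up to 10 per direction of the sex comparison. Not every gene of these groups is named in the text. Other list members were named after their values were seen, for their known roles. No diet test was made.

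Sexes were compared in the 10 arrays with limma 3.58.1 (lmFit, eBayes, two-sided, Benjamini-Hochberg over 29214 probe sets) in R 4.3.3. Tested on simulated data of that comparison, it recovered 91% of 100 changes of 1 log2 and 99% of 100 changes of 2 log2. The simulated probe sets varied independently of each other, without array-wide shifts or shared fathers. These shares therefore do not give the power of the real comparison. Animals that share a father could not be modelled, and p-values treat arrays as independent. Alternatives were the olfactory receptor percentile, the rule for several probe sets, quantile normalization, a filter on dim genes, other fits and leaving out arrays. Tables and figures were made with Python 3.11.15.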

Additional observations from a re-analysis of the deposited data

Results flagged for a closer look

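Over the 10 arrays, 142 genes and list means were checked for a highest or lowest array that stands off from the others by more of the whole range than Dixon's criterion at 95% allows. This picked out 27, or 19%. Chance picks about 1 in 20 of unselected items, but this rate does not apply here, since many of the genes were chosen for their large SD over these arrays or for their high mean, and genes of a list are not independent.

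The low acinar signal of daughter 5 accounted for 13: Ctrb1 (13.8 there), Prss3b (13.61), Cpa1 (13.42), Cpb1 (13.21), Cel (12.91), Reg1a (13.04), Cela2a (12.53), Pnliprp1 (12.68), Zg16 (12.57), Clps (12.13), Pla2g1b (12.36), Cela3b (12.13) and Cela1 (11.68) were each lowest there.

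In daughter 1 the Ucp1 signal of 8.12, the fat list mean of 6.75 and the interferon list mean of 7.09 were high, and Ghrl (5.68), Irx1 (5.9) and the mean of the alpha, delta, PP and epsilon cell transcription factors (6.85) were low. In son 1 Fabp2 (7.21), the small intestine list mean (7.08), Foxa1 (6.1), Nkx6-2 (6.89) and Sry (5.32, the only measured gene of its list) were high and Fam111a (5.22) was low. The olfactory receptor level of son 1 was also the highest, 6.11, so Foxa1 and Sry stayed below it there.

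Ppy was low in son 2, at 12.54, and Gata6 high in daughter 3, at 7.55, where its nearest neighbour read 7.45.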

How the results depend on the processing

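No paired analysis was possible because the replicate numbers name arrays in accession order and the labels pair none. The count of genes above the olfactory receptor level, 9775, ranged from 6854 with the 99th percentile to 10932 with the mean of the 10 arrays, and from 9779 to 10225 on leaving out 1 array. The count of genes with an SD of at least 1, 48, was between 37 and 54 under quantile normalization, SDs within the sexes, probe set means or dim genes left out. It ranged from 29 to 60 on leaving out 1 array, and was 31 without daughter 1 and son 1 and 18 without daughter 1 and son 3, the latter chosen after the data were seen.

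Between the sexes limma called 0 probe sets with adjusted p in the main fit and 0 in each alternative run, the smallest adjusted p being 0.0902 with all 20 arrays in the fit. The unadjusted count, 961, was 617 with dim probe sets left out, 1680 without daughter 1 and son 1, and 659 to 1828 on leaving out 1 array. All 20 named sex differences kept their sign in these alternatives, and in 95 cases, each 1 gene in 1 alternative, they lost the unadjusted threshold. They were chosen for their size in these same arrays, so the kept sign is no independent support. Precision is limited by the number of arrays and, for the strongest signals, by compression near the top of the range.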

Other observations

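Of 22 measured cell cycle genes 18 were above the olfactory receptor level in these juvenile islets, against 67.4% of all genes. Ccnd2, the cyclin known for beta cell growth, had 11.67 ± 0.15 (SD, n = 10) and Ccnd1 9.2 ± 0.16. Top2a, a topoisomerase of dividing cells, ranged from 7.3 in daughter 2 to 8.58 in son 5, and son 5 was the highest array in 11 of the 22. Cdkn2a, an inhibitor that accumulates with age, was near-silent at 5.16 ± 0.21.

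Among inflammatory genes, Il1r1, the interleukin 1 receptor, had 10.07 ± 0.32 and was above the level in all 10 arrays, while Il1a was near-silent at 3.26 ± 0.16 and Il6 was above the level in 1 array. Over the 22 genes of that list 11 were above the level, against 67.4% of all genes, 10 mixed and 1 near-silent. Daughter 1 was the highest array in 11.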
